A study of Mus musculus with 20 samples.

Results

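The circadian clock genes described here are Per1, Per2, Per3, Cry1, Cry2, Nr1d1, Nr1d2, Dbp, Clock and Npas2, 10 of the 57180 Ensembl gene identifiers in the count table. They were chosen by symbol as genes of the molecular clock, not by their values, although earlier results of these data were known. RNA was sequenced from tissue punches of mouse brain in 4 groups of libraries. The PVT STZ group (6 libraries) held punches of the paraventricular thalamic nucleus, a midline thalamic nucleus tied to arousal and aversion, from mice given 200 mg/kg streptozotocin (STZ) in 1 intraperitoneal injection. STZ destroys insulin-producing beta cells, and the labels describe the mice as a model of painful diabetic neuropathy, with tissue taken at week 7. The PVT control group (4 libraries) held the same nucleus from vehicle-treated mice. The pIC STZ group (6 libraries) and the pIC control group (4 libraries) held the posterior insular cortex, a cortical field for pain and body state, from mice of the same 2 treatments. The labels give no strain, sex, age or time of day of collection, so where in the daily cycle each mouse was sampled is not known, and the libraries cannot show a rhythm. Whether each library came from a different mouse is not stated, so p-values measure the spread between these libraries, which may be partly technical.

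The molecular clock is a feedback loop of transcription that runs in neurons and glia through the brain. CLOCK, or its paralog NPAS2, pairs with BMAL1 and activates genes that carry E-boxes, among them the Per, Cry and Nr1d genes and Dbp. PER and CRY proteins enter the nucleus and shut this activation down, while NR1D1 and NR1D2 (REV-ERB alpha and beta) repress Bmal1, and DBP drives output genes through D-boxes. Per1 is also known as an immediate target of glucocorticoid and cyclic AMP signalling.

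Promoter windows of 250 bases before the annotated start were available for 9 of the 10 genes (12 windows, Per2 having none), from RefSeq on build GRCm38.p6, a build other than that of the counts. They were searched on both strands for the E-box CACGTG, the E-prime box CACGTT, the D-box TTANNTAA, the ROR element NTAGGTCA, the glucocorticoid element and the cyclic AMP element TGACGNCA. The 5 windows with a match are printed 5′ to 3′ on the gene's own strand, with the matched letters in capitals. They show which of these genes carry, close to the start, these exact patterns of letters that clock proteins are known to bind. Other variants of the motifs were not searched for, so letters left in lower case may still hold one.
Per1 (chr11:69098699-69098948, plus strand): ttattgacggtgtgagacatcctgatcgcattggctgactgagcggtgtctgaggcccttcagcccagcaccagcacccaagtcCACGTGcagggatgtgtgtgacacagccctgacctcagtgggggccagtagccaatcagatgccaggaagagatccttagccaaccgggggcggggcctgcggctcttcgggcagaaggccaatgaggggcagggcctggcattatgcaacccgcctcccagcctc
Cry2 (chr2:92434070-92434319, minus strand): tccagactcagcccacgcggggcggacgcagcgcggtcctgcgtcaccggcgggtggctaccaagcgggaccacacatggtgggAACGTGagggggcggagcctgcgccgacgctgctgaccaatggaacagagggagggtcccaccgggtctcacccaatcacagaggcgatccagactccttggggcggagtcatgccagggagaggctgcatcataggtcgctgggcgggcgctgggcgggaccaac
Per3 (chr4:151044666-151044915, minus strand): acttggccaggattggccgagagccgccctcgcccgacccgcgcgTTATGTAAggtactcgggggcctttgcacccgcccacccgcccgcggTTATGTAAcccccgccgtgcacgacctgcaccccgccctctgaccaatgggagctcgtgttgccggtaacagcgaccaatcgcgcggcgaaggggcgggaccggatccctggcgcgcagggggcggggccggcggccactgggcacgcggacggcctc
Cry1 (chr10:85185055-85185304, minus strand): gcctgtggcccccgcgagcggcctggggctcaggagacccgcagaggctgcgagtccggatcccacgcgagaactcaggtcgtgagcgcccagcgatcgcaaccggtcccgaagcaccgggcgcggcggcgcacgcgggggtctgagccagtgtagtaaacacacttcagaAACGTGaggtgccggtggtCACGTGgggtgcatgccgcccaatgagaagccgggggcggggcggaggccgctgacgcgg
Nr1d1 (chr11:98775378-98775627, minus strand): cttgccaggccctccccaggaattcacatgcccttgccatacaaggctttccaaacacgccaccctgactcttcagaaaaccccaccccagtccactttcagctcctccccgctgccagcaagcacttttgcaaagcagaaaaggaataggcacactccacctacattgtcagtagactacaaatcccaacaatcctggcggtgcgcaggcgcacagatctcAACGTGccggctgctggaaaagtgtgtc
The Per1 window held an E-box at positions -166 to -161, counted back from the start. The Cry2 window held an E-prime box, which on the printed strand reads AACGTG, at the same distance, -166 to -161. The Per3 window held 2 D-boxes, both TTATGTAA, at -205 to -198 and at -158 to -151. The Cry1 window held an E-prime box at -79 to -74 and an E-box at -60 to -55, and the Nr1d1 window an E-prime box at -28 to -23. Of all 32851 mouse windows of this length, 6.02% held the E-box, 3.85% the E-prime box, 5.43% the D-box, 2.22% the ROR element, 0.387% the glucocorticoid element and 2.75% the cyclic AMP element. None of the 6 motifs was found in the windows of Nr1d2, Dbp, Clock and Npas2 or in the second Per1 window. These matches describe letters in short windows and show no binding.

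All 10 genes were measured well above the filter on low counts, with 381 to 4273 reads per library for a gene, and all 10 were tested in every comparison. Total counts lay between 21.7 M and 25.3 M for PVT STZ, 17.9 M and 24.5 M for PVT control, 19 M and 25.5 M for pIC STZ, and 21.2 M and 23.3 M for pIC control libraries. The labelled regions were checked against markers. In STZ mice 10 of 10 thalamic markers were higher and 8 of 10 cortical markers lower in PVT than in pIC (edgeR, adjusted p under 0.05), and in control mice these were 7 and 7. The punches also varied in content. In CPM (a library's counts scaled to a fixed total), the summed level of 8 striatal neuron genes spanned 231 to 3440 CPM in PVT STZ, 314 to 1510 CPM in PVT control, 396 to 3590 CPM in pIC STZ and 394 to 1380 CPM in pIC control libraries. PVT control replicate 4 stood apart, with growth hormone mRNA (Gh) at 11800 CPM. Without that library the counts of clock genes that passed a test, given below, were the same in each of the 3 comparisons that use it. In punches, fewer cells of a type and less RNA per cell cannot be told apart.

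Levels are CPM after TMM scaling, which corrects for depth and for composition. For groups of 6 libraries the lowest, median and highest values are given, and for groups of 4 each value. Clock, Npas2 and the repressors were all clearly expressed in both regions. To compare genes with each other, mean CPM was divided by merged exon length. Per kilobase, Nr1d2 (21.2 ± 1.76, SD, n = 6), Nr1d1 (18.8 ± 2.27) and Cry2 (17.5 ± 1.67 CPM per kb) stood at the top in PVT STZ libraries, and Per3 at the bottom (2.07 ± 0.139). In pIC control libraries Nr1d1 led at 29.4 ± 5.02 CPM per kb (n = 4), ahead of Cry2 at 23.7 ± 1.39, Nr1d2 at 20.5 ± 3.33, Per1 at 20.2 ± 2.95 and Dbp at 15.4 ± 4.32, and Per3 was last at 2.45 ± 0.262. Npas2, Cry1, Per2 and Clock lay between, with means of 9.12, 7.94, 7.48 and 6.12 CPM per kb in pIC control libraries. Nearly every gene overlapped in range with the next one in this order. Per3 was the exception, being below its neighbour without overlap in all 4 groups. Per1 was also above Cry1 without overlap in PVT control, and Nr1d2 above Per1 without overlap in pIC STZ. The lengths come from an annotation of another build and merge all isoforms, so the order is approximate.

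**Figure D1:**
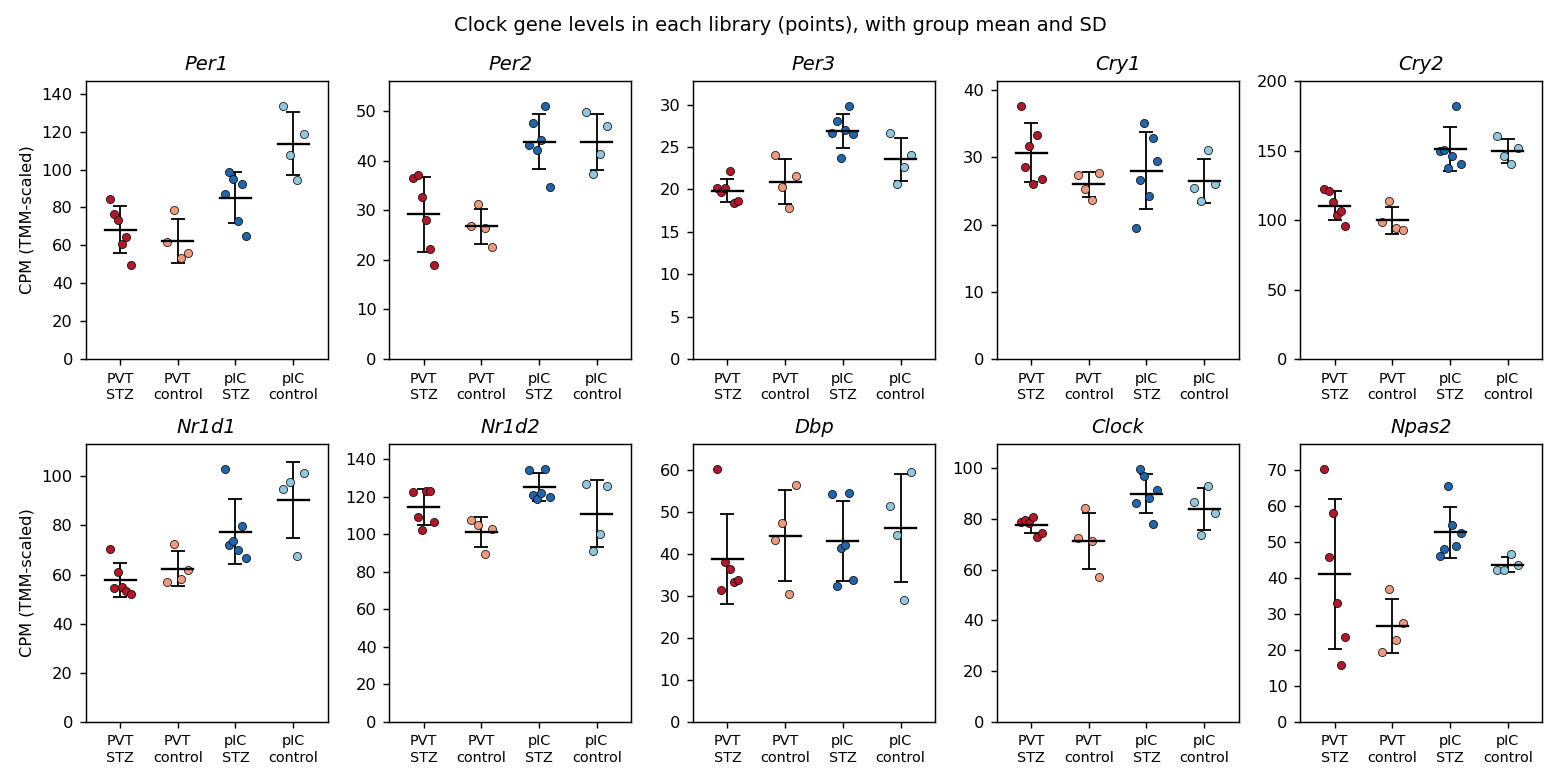
Level of each clock gene in each library, in CPM after TMM scaling, with 1 panel per gene and a linear axis from 0. Points are libraries, horizontal lines group means and bars SDs (6 libraries in each STZ group, 4 in each control group). The mean of every gene but Cry1 is lower in PVT than in pIC in both treatments. All PVT points lie below all pIC points only for Per3 and Cry2 in STZ mice and for Per1, Per2, Cry2 and Npas2 in control mice. Npas2 spreads from 15.75 to 70.36 CPM in PVT STZ, and STZ and control points of a region overlap in every panel.

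STZ mice were first compared with control mice within each region. No clock gene passed the test in PVT, where 2.07% of the 17076 genes tested did (edgeR quasi-likelihood test, Benjamini-Hochberg adjusted p under 0.05). None passed in pIC either, where 1.4% of 16189 genes did. At an unadjusted p under 0.05 there were 2 of 10 clock genes in PVT (Cry1 and Nr1d2), against 17.8% of all genes, and 3 of 10 in pIC (Per1, Per3 and Npas2), against 11.8%. DESeq2 called 0 of the 10 in PVT and 1, Per1, in pIC. Of all genes DESeq2 called 904 in PVT, and its count in pIC is not given here. The median log2 fold change of the 10 genes was 0.14 in PVT and 0.04 in pIC, beside 0.00 for all genes tested in each region. STZ and control libraries overlapped for all 10 genes in both regions, while 6.14% of genes in PVT and 4.44% in pIC did not overlap.

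Among the repressors, Per1 (ENSMUSG00000020893) showed the lowest unadjusted p of the clock genes in pIC. Its level was 65.05, 89.73 and 98.96 CPM (lowest, median and highest) in pIC STZ libraries, against 133.4, 107.9, 94.31 and 119 CPM in pIC control libraries. In 3 of the 4 controls it exceeded every STZ library, and the fourth control lay within the STZ range. The log2 fold change was -0.42 (95% interval -0.69 to -0.14, SE 0.125), with an adjusted p of 0.166 in edgeR's quasi-likelihood test. The same change was past the threshold in DESeq2, at -0.42 with adjusted p = 0.033, and over all alternatives its adjusted p ran between 0.033 and 0.417. In PVT, Per1 was at 49.87, 68.84 and 84.43 CPM in STZ libraries, against 61.61, 78.81, 53.11 and 55.88 CPM in controls, a log2 fold change of 0.14 (-0.19 to 0.47). The groups overlapped widely there. The STZ effect on Per1 in PVT minus that in pIC was 0.55 on the log2 scale (0.11 to 0.98, unadjusted p = 0.0178), with adjusted p = 1 in edgeR. No clock gene, and 0 of all 17427 genes, passed this test of the difference between regions, while 4.02% of genes and 2 of the 10 clock genes (Per1 and Per3) had an unadjusted p under 0.05. DESeq2 called none of the 10 there.

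The other Per genes moved less. Per2 (ENSMUSG00000055866), the paralog most needed for a stable rhythm, had 18.91, 30.33 and 37.01 CPM in PVT STZ libraries, against 26.77, 31.26, 26.36 and 22.5 CPM in PVT control libraries, with a log2 fold change of 0.14 (-0.28 to 0.55). In pIC its STZ libraries had 34.59, 43.59 and 50.92 CPM and its controls 49.75, 37.22, 41.29 and 46.87 CPM, a log2 fold change of -0.01 (-0.23 to 0.22). Per2 values of STZ mice enclosed those of control mice in both regions. Per3 (ENSMUSG00000028957), which is dispensable for the core loop, had 23.66, 26.77 and 29.8 CPM in pIC STZ libraries, against 26.67, 20.68, 22.68 and 24.1 CPM in pIC control libraries. Its log2 fold change in pIC was 0.19 (0.02 to 0.36), with adjusted p = 0.373. In PVT it had 18.44, 19.87 and 22.13 CPM in STZ libraries, against 24.11, 20.24, 17.78 and 21.54 CPM in controls, a log2 fold change of -0.07 (-0.26 to 0.12). The STZ effect on Per3 in PVT minus that in pIC was -0.27 (-0.52 to -0.02, adjusted p = 1).

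The cryptochromes are the stronger repressors of CLOCK and BMAL1. Cry1 (ENSMUSG00000020038) had 26.11, 30.07 and 37.6 CPM in PVT STZ libraries, against 27.43, 25.26, 23.68 and 27.65 CPM in PVT control libraries, and 4 of the 6 STZ libraries lay above every control. Its log2 fold change was 0.25 (0.01 to 0.48), with unadjusted p = 0.0411 and adjusted p = 0.259. In pIC, Cry1 had 19.53, 28.08 and 35.19 CPM in STZ libraries, against 25.46, 23.47, 31.13 and 25.99 CPM in controls (log2 fold change 0.07, -0.25 to 0.40). The STZ range there held all 4 controls. Cry2 (ENSMUSG00000068742) had 95.45, 109.8 and 122.7 CPM in PVT STZ libraries, against 98.55, 113.7, 94.21 and 92.72 CPM in PVT control libraries (0.15, -0.03 to 0.34). In pIC, Cry2 had 137.5, 147.9 and 181.9 CPM in STZ libraries, against 160.8, 146.1, 140.1 and 151.6 CPM in controls (0.01, -0.15 to 0.16). This interval for Cry2 was the narrowest of the 10 in pIC.

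Nr1d1 and Nr1d2 encode the nuclear receptors of the second, Bmal1-repressing arm. Nr1d1 (ENSMUSG00000020889) had 66.62, 72.82 and 103 CPM in pIC STZ libraries, against 94.75, 97.86, 67.55 and 101.3 CPM in pIC control libraries, a log2 fold change of -0.23 (-0.53 to 0.07, adjusted p = 0.569). Replicate 1 of the STZ group lay above every control, and replicate 3 of the controls lay within the STZ range. In PVT, Nr1d1 had 52.25, 54.67 and 70.48 CPM in STZ libraries, against 56.91, 72.48, 58.3 and 61.72 CPM in controls (-0.10, -0.31 to 0.11). Nr1d2 (ENSMUSG00000021775) had 102.5, 116 and 123.4 CPM in PVT STZ libraries, against 107.6, 104.8, 89.61 and 103 CPM in PVT control libraries. Its log2 fold change in PVT was 0.19 (0.02 to 0.35), with unadjusted p = 0.0322 and adjusted p = 0.235, and 4 of the 6 STZ values exceeded every control. In pIC, Nr1d2 had 118.7, 121.4 and 134.9 CPM in STZ libraries, against 126.8, 91.37, 100.3 and 126 CPM in controls (0.17, -0.02 to 0.35). The 2 Nr1d paralogs thus had estimates of opposite sign in both regions, none of which passed.

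Dbp (ENSMUSG00000059824), the D-box activator whose mRNA swings widely over the day in many tissues, varied more between libraries than between treatments. It had 31.37, 35.13 and 60.33 CPM in PVT STZ libraries, against 43.47, 47.45, 30.42 and 56.43 CPM in PVT control libraries (log2 fold change -0.18, -0.65 to 0.28). In pIC it had 32.44, 41.9 and 54.49 CPM in STZ libraries, against 51.5, 44.68, 29.06 and 59.55 CPM in controls (-0.10, -0.58 to 0.38). Its coefficient of variation within a group was 22.2% to 28%, and these wide intervals leave room for a change of either sign.

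Clock (ENSMUSG00000029238), the activator subunit, had 72.93, 78.72 and 80.74 CPM in PVT STZ libraries, against 72.7, 84.43, 71.39 and 57.09 CPM in PVT control libraries (0.13, -0.06 to 0.32). Its coefficient of variation was 3.98% in PVT STZ, the lowest of the 10 genes in any group, but 15.7% in PVT control libraries. In pIC it had 77.99, 89.84 and 99.8 CPM in STZ libraries, against 86.6, 73.72, 93.18 and 82.31 CPM in controls (0.10, -0.07 to 0.26). Its paralog Npas2 (ENSMUSG00000026077), a forebrain partner of BMAL1, was the most variable of the 10 genes in PVT. In PVT STZ replicates 1 to 6 it had 70.36, 45.83, 58.06, 32.95, 15.75 and 23.72 CPM, against 19.46, 36.89, 22.65 and 27.61 CPM in PVT control libraries. The STZ libraries ran from below the lowest to well above the highest control, with a coefficient of variation of 50.8% against 28.5%. The log2 fold change in PVT was 0.63 (-0.24 to 1.51), with adjusted p = 0.443. In pIC, Npas2 had 46.23, 50.71 and 65.57 CPM in STZ libraries, against 42.22, 42.27, 46.74 and 43.6 CPM in controls, so that 5 of 6 STZ libraries exceeded every control. The log2 fold change in pIC was 0.26 (0.07 to 0.46), with unadjusted p = 0.0102 and adjusted p = 0.216.

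The spread of Npas2 went with the content of the punches, both in striatal neuron genes and in genes of the thalamic and cortical lists. The striatal list includes the dopamine receptor genes Drd1 and Drd2 and the adenosine receptor gene Adora2a, and none of its genes was at 0 in all libraries of a group. PVT STZ replicate 1, with the highest Npas2, had a summed striatal level of 3440 CPM, and replicate 5, with the lowest, had 231 CPM. In pIC, STZ replicate 3 had both the highest Npas2 of its group, 65.57 CPM, and the highest striatal sum, 3590 CPM. With treatment means removed, Npas2 and the mean log2 level of the striatal list had Pearson r = 0.902 (p = 0.000926) and Spearman rho = 0.952 (p = 0.000694) over the 10 PVT libraries (permutation test within groups, two-sided). In the 10 pIC libraries r was 0.954 (p = 0.000752) and rho 0.952 (p = 0.000868) by the same permutation test. Adjusted over the 60 relations computed between the 10 genes and 3 marker lists in 2 regions, p was 0.0185 for r and 0.026 for rho in both regions. Without the 2 libraries farthest from the median striatal level, r was 0.75 in PVT and 0.902 in pIC. The 10 thalamic genes summed to between 399 and 1680 CPM in PVT libraries but only to between 76 and 127 CPM in pIC libraries. The thalamic list had relations to Npas2 of similar size but opposite sign in the 2 regions. Its r was -0.952 (p = 0.000347, adjusted 0.0185) and rho -0.915 (p = 0.0033, adjusted 0.0486) in PVT, and r was 0.88 (p = 0.00203, adjusted 0.0304) and rho 0.939 (p = 0.0026, adjusted 0.0486) in pIC, by the same permutation test. Without the 2 libraries farthest from the median thalamic level, r was -0.895 in PVT and 0.909 in pIC. The cortical list had r = -0.91 with Npas2 in pIC (adjusted permutation p = 0.0689) and 0.458 in PVT (0.296). The Npas2 spread is thus not particular to the striatal list. The striatal relation was looked for after the Npas2 values were seen. With the striatal level as a covariate, Npas2 had a log2 fold change of 0.29 in PVT (adjusted p = 0.403) and of 0.20 in pIC (adjusted p = 0.0448), so it passed in pIC with that covariate. With the thalamic level as a covariate, Npas2 passed in PVT, at 0.61 with adjusted p = 0.0248. In that fit 1066 of all genes passed, against 353 without the covariate.

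**Figure D2:**
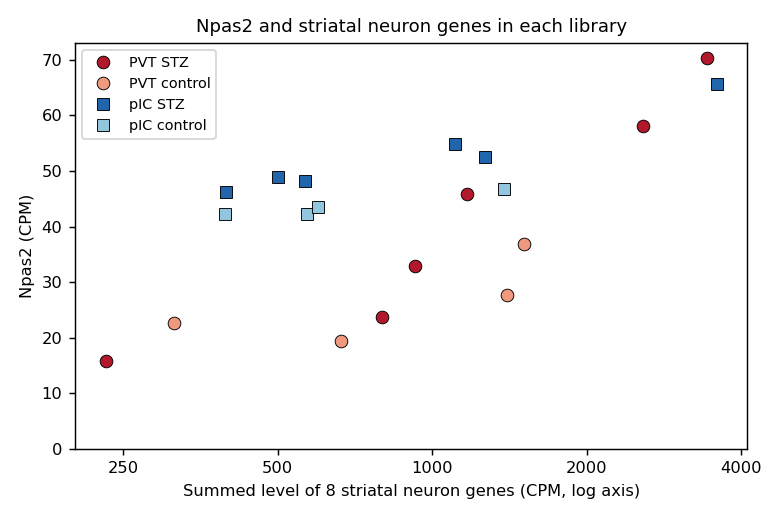
Npas2 level (CPM, vertical axis from 0) against the summed level of 8 striatal neuron genes (CPM, log axis) in each of the 20 libraries, with circles for PVT and squares for pIC. In PVT, Npas2 runs from 15.75 CPM at a striatal sum of 231 CPM to 70.36 CPM at 3440 CPM, and in pIC the library with the highest sum also has the highest Npas2.

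Other markers moved with treatment in PVT, where 2.07% of all genes passed. The summed level of 8 ependymal genes was 59.7 to 81.9 CPM in PVT STZ, against 96.2 to 133 CPM in PVT control libraries, without overlap, and 7 of the 8 were lower in STZ mice. All 8 choroid plexus genes had negative estimates (median log2 fold change -0.73, 6 at an unadjusted p under 0.05, 0 called), with summed levels of 1330 to 3320 CPM in PVT STZ and 2950 to 6000 CPM in PVT control libraries. All 8 oligodendrocyte genes also had negative estimates (median -0.26) and 3 were called lower, with summed levels of 6270 to 8850 CPM in PVT STZ and 7780 to 9750 CPM in PVT control libraries. With the ependymal level as a covariate, the estimates for Per1, Per2, Cry2 and Clock in PVT turned negative (-0.40, -0.34, -0.15 and -0.09) and that for Per3 positive (0.12), and none passed. Because the ependymal level did not overlap between STZ and control libraries, that fit could hardly separate it from treatment. The part of ependymal, choroid plexus and oligodendrocyte cells in the values of the clock genes was not tested further.

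Other genes of the clock and its output did not pass either. Of 21 (the remaining activators, the ROR receptors, the Bhlhe repressors, PAR-domain factors, enzymes that act on clock proteins, and output genes), 0 passed in PVT and 0 in pIC, with median log2 fold changes of 0.11 and 0.00. At an unadjusted p under 0.05 there were 5 of 21 in PVT, where 17.8% of all genes had such a p, and 3 of 21 in pIC, where 11.8% did, so neither count stands far from the share of all genes. Bmal1, the obligate partner of CLOCK and NPAS2, averaged 31.6 ± 6.0 CPM in PVT STZ and 26.04 ± 5.67 CPM in PVT control libraries (log2 fold change 0.29, -0.07 to 0.66, adjusted p = 0.4). In pIC it averaged 44.3 ± 6.49 CPM in STZ and 39.9 ± 3.17 CPM in control libraries (0.14, -0.07 to 0.36, adjusted p = 0.622). Nfil3, the D-box repressor that opposes DBP, averaged 12.3 ± 1.58 CPM in pIC STZ and 16.3 ± 2.21 CPM in pIC control libraries, with a log2 fold change of -0.41 and adjusted p = 0.0953. Lonrf3 averaged 4.96 ± 0.575 CPM in PVT STZ and 3.10 ± 0.997 CPM in PVT control libraries (0.69, adjusted p = 0.104). DESeq2 put Nfil3 in pIC (adjusted p = 0.0326) and Lonrf3 in PVT (0.021) past the threshold.

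Genes responsive to inputs of the clock were examined beside it, in lists chosen with earlier results of these data known. Of 19 glucocorticoid-responsive genes, other than the clock genes, 10 rose in PVT and 7 in pIC, none fell, and their median log2 fold changes were 0.54 and 0.45, where 2.07% of all genes in PVT and 1.4% in pIC passed in either direction. Plin4, a lipid droplet protein, rose by 2.05 in PVT and 2.16 in pIC on the log2 scale (adjusted p = 0.00143 and 0.0402), and Nfkbia, the NF-kappaB inhibitor, by 0.92 and 0.83 (0.00729 and 0.00108). Sult1a1, a sulfotransferase, rose by 0.92 and 0.90, and Ddit4, an mTORC1 inhibitor, by 0.54 and 0.58 (adjusted p = 0.0038 and 0.000693 for Sult1a1, 0.00188 and 0.00218 for Ddit4). Per1, known to respond to the same hormone, had 0.14 in PVT and -0.42 in pIC. Of 10 immediate early genes, 0 passed in PVT (median -0.35) and 4 fell in pIC (median -0.73), against the same shares of all genes. Fos had -0.87 in pIC (adjusted p = 0.0392) and -0.81 in PVT (0.236), and Egr1 -0.76 in pIC (0.0103) and -0.42 in PVT (0.674). In PVT control replicates 1 to 4, Fos was at 26.72, 37.22, 39.98 and 91.8 CPM. Leaving out 1 library at a time, the Fos estimate in PVT ran between -1.006 and -0.298. Egr4 had -0.73 in pIC (0.0105) and -0.30 in PVT (0.796), while Ier2 had -0.71 in pIC (0.106) and -0.51 in PVT (0.275). The calls for Fos, Egr1 and Egr4 in pIC were lost when all 20 libraries shared 1 fit (adjusted p = 0.188, 0.473 and 0.55) and without pIC control replicate 2 (0.128, 0.0557 and 0.0583). The Fos call was also lost without any 1 of 7 other libraries (pIC STZ replicates 3, 4, 5 and 6 and pIC control replicates 1, 3 and 4), with adjusted p between 0.0565 and 0.121. The Plin4 call in pIC was lost without any 1 of 8 libraries (pIC STZ replicates 1, 2, 3, 4 and 6 and pIC control replicates 1, 2 and 3), with adjusted p between 0.0509 and 0.119. In PVT the 4 named glucocorticoid-responsive genes did not pass in edgeR with the ependymal level as a covariate (adjusted p = 0.232 for Plin4 and 1 for the others). That level did not overlap between STZ and control libraries, so the fit could hardly separate it from treatment. Over the alternatives that kept all libraries, the PVT estimates stayed positive. They were 1.99 to 2.77 for Plin4, 0.48 to 0.55 for Ddit4, 0.86 to 1.00 for Sult1a1 and 0.64 to 0.95 for Nfkbia.

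PVT was then compared with pIC within each treatment. In STZ mice 5 of the 10 clock genes were lower in PVT and none higher, where 23.1% of the 16489 genes tested were lower, 26% were higher and 49.1% passed in either direction. In control mice 5 were also lower and none higher, where 22.4% of 16614 genes were lower, 25.5% were higher and 47.8% passed in either direction. Per2, Cry2 and Nr1d1 were lower in both treatments, Per3 and Clock passed in STZ mice, and Per1 and Npas2 passed in control mice. The median log2 fold change of the 10 genes was -0.34 in STZ mice and -0.39 in control mice, beside 0.02 and 0.03 for all genes tested. In STZ mice 2 of the 10 (Per3 and Cry2) had every PVT library below every pIC library, as did 13.4% of all genes. In control mice this held for 4 (Per1, Per2, Cry2 and Npas2) and for 21.2% of all genes.

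**Figure D3:**
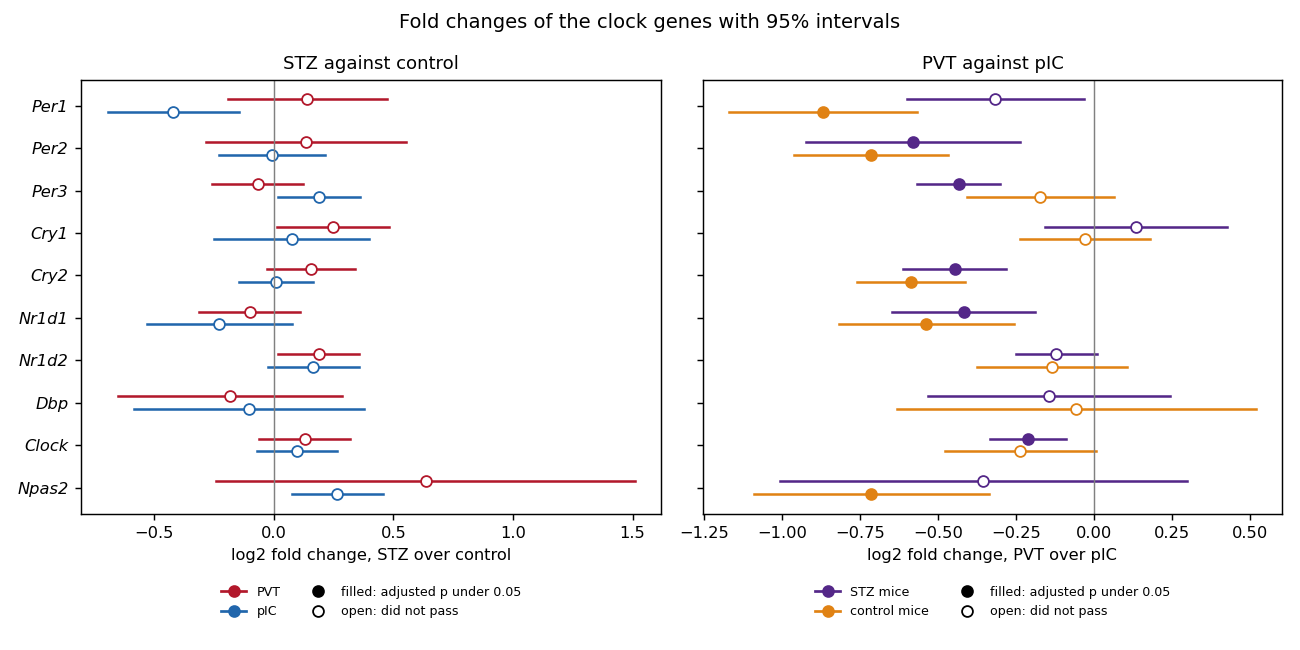
Log2 fold change (points) with 95% intervals (lines) of the 10 clock genes, STZ over control in PVT and in pIC on the left, and PVT over pIC in STZ and in control mice on the right. Filled points had an adjusted p under 0.05 in edgeR. All points on the left are open, and the 10 filled points on the right lie below 0, between -0.21 and -0.87.

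Cry2 averaged 110.5 ± 10.6 CPM in PVT STZ and 151 ± 16.0 CPM in pIC STZ libraries (SD, n = 6 each), a log2 fold change of -0.45 (-0.61 to -0.28, adjusted p = 0.000358). In control mice Cry2 averaged 99.8 ± 9.62 CPM in PVT and 149.7 ± 8.77 CPM in pIC (n = 4 each), a log2 fold change of -0.59 (-0.76 to -0.41, adjusted p = 0.000176). Cry2 was thus below pIC levels in every PVT library of either treatment. Per2 averaged 29.2 ± 7.51 CPM in PVT STZ and 43.8 ± 5.54 CPM in pIC STZ libraries (-0.58, -0.92 to -0.24, adjusted p = 0.00863). In control mice it averaged 26.7 ± 3.59 CPM in PVT and 43.8 ± 5.61 CPM in pIC (-0.71, -0.96 to -0.47, adjusted p = 0.000426). The Per2 difference was without overlap in control mice, while in STZ mice the highest PVT values, 36.4 and 37.01 CPM, exceeded the lowest pIC value of 34.59 CPM.

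Per1 averaged 62.4 ± 11.53 CPM in PVT control and 113.7 ± 16.6 CPM in pIC control libraries, the largest difference of the set, at -0.87 on the log2 scale (-1.17 to -0.57, adjusted p = 0.000586). In STZ mice Per1 averaged 68.2 ± 12.4 CPM in PVT and 85.2 ± 13.3 CPM in pIC (-0.32, -0.60 to -0.03), and the adjusted p was 0.0621. This value was close to the threshold. It was 0.0316 in DESeq2, and without PVT STZ replicate 1, PVT STZ replicate 2 or pIC STZ replicate 6 it was 0.0238, 0.0487 and 0.0237. Within each of the 6 library labels of STZ mice, Per1 was lower in the PVT than in the pIC library. With a term for the label in edgeR, the adjusted p of Per1 was 0.00287, although a shared label is not stated to mean a shared mouse. Nr1d1 averaged 57.7 ± 6.98 CPM in PVT STZ and 77.5 ± 13.3 CPM in pIC STZ libraries (-0.42, adjusted p = 0.00547), and 62.4 ± 7.05 CPM in PVT control and 90.4 ± 15.4 CPM in pIC control libraries (-0.54, adjusted p = 0.00575). The Nr1d1 ranges overlapped in both treatments. The highest PVT value was 70.48 CPM in STZ and 72.48 CPM in control mice, against lowest pIC values of 66.62 and 67.55 CPM. Per3 averaged 19.9 ± 1.33 CPM in PVT STZ and 26.9 ± 2.02 CPM in pIC STZ libraries (-0.43, adjusted p = 9.18e-05), but 20.9 ± 2.64 CPM in PVT control and 23.5 ± 2.52 CPM in pIC control libraries (-0.17, adjusted p = 0.211). The difference between these Per3 contrasts is the interaction given above, which did not pass.

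Clock averaged 77.5 ± 3.08 CPM in PVT STZ and 90.1 ± 7.84 CPM in pIC STZ libraries (-0.21, adjusted p = 0.00718), and 71.4 ± 11.2 CPM in PVT control and 84.0 ± 8.15 CPM in pIC control libraries (-0.24, adjusted p = 0.0995). The control estimate was as large but less precise, and without PVT control replicate 2 it was -0.34 with adjusted p = 0.0205. Npas2 averaged 26.6 ± 7.6 CPM in PVT control and 43.7 ± 2.12 CPM in pIC control libraries (-0.71, -1.09 to -0.34, adjusted p = 0.00661). With all 20 libraries in 1 fit that adjusted p was 0.0807. In STZ mice Npas2 averaged 41.1 ± 20.9 CPM in PVT and 52.7 ± 7.03 CPM in pIC (-0.35, adjusted p = 0.354), and with the striatal level as a covariate the estimate was -0.65 (adjusted p = 0.0123). Nr1d2, Dbp and Cry1 passed in neither treatment in edgeR without a term for the label. With that term Nr1d2 had an adjusted p of 0.0365 in STZ mice. Cry1 had intervals of -0.16 to 0.43 in STZ mice and -0.24 to 0.18 in control mice, Nr1d2 -0.25 to 0.01 and -0.38 to 0.11, and Dbp -0.53 to 0.24 and -0.63 to 0.52.

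Of the 21 other clock genes, 11 were lower and 4 higher in PVT in STZ mice, and 12 lower and 4 higher in control mice. Of all genes 23.1% were lower and 26% higher in STZ mice, and 22.4% lower and 25.5% higher in control mice. Bmal1 was lower in PVT in both treatments, with log2 fold changes of -0.48 in STZ mice (adjusted p = 0.00606) and -0.62 in control mice (adjusted p = 0.00385). Rorb, which is in this list, is also 1 of the 10 cortical markers. Oligodendrocyte markers (8 of 8), choroid plexus markers (8 of 8) and ependymal markers (8 of 8) were higher in PVT in both treatments, so the regions differ in cell content as well, and the part of that content in the clock gene differences was not tested.

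How the clock genes varied together among libraries of a region is given as Pearson r of log2 CPM with treatment means removed, over 10 libraries that share punch content and scaling, as a description. In PVT, Per1 went with Cry2 (r = 0.98), Per2 (0.86), Nr1d1 (0.79) and Npas2 (0.70), and Per2 with Cry2 (0.88). The same genes ran against the thalamic list in PVT. Its r was -0.746 with Per1, -0.833 with Per2, -0.753 with Cry2, -0.735 with Nr1d1 and -0.952 with Npas2. It was -0.221 with Per3 and 0.049 with Nr1d2. Of these only the Npas2 relation passed adjustment over the 60 relations, and the part of punch content was not tested. Of the printed windows, Per1 holds an E-box and Cry2 an E-prime box at the same distance from the start. Cry1, which holds both motifs, had r = 0.53 with Per1 in PVT, and Nr1d1, with an E-prime box, had 0.79. The genes whose windows held no match had r with Per1 in PVT of 0.703 (Npas2), 0.535 (Clock), 0.48 (Dbp) and 0.291 (Nr1d2). This is a description, and whether the motifs bear on these values was not tested. In pIC, Per1 went with Per2 (0.75) and less with Cry2 (0.50), and its r with Npas2 was -0.16. Dbp went with Nr1d1 in both regions, at 0.73 in PVT and 0.85 in pIC. The activators Npas2 and Bmal1 also went together in both, at 0.75 and 0.83.

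In the pIC libraries some of these genes ran against Bmal1 and Clock. Per3, Cry2, Nr1d1, Nr1d2 and Dbp had r of -0.48 to -0.62 with Bmal1, and Dbp had -0.66 and Nr1d1 -0.56 with Clock. Cry1, which peaks late in the cycle in many tissues, sided with Bmal1 (0.73) and ran against Nr1d1 (-0.64). Other pairs lay near 0 in pIC, such as Cry1 with Cry2 (0.01), Per3 (-0.06) and Nr1d2 (-0.14), Clock with Per3 (-0.05) and Nr1d2 (-0.07), and Per1 with Bmal1 (-0.14), so the genes did not fall into 2 clean sets. In PVT some pairs had the other sign, as Bmal1 had r of 0.62 with Cry2 and 0.58 with Nr1d1, and Cry1 had 0.54 with Nr1d1. Other PVT pairs kept the sign seen in pIC, with Bmal1 at -0.52 with Nr1d2 and -0.26 with Per3, and Bmal1 with Dbp was near 0 (-0.03). The difference between the regions was not tested. In pIC the striatal list had r of -0.66 with Nr1d1, -0.70 with Cry2 and 0.64 with Cry1, beside 0.95 with Npas2. The pIC STZ replicate 3, with the highest striatal sum in pIC (3590 CPM), also had the highest Cry1 (35.19 CPM), Bmal1 (56.06 CPM) and Npas2 (65.57 CPM) there. The part of punch content, or of that library, in these patterns was not tested.

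**Figure D4:**
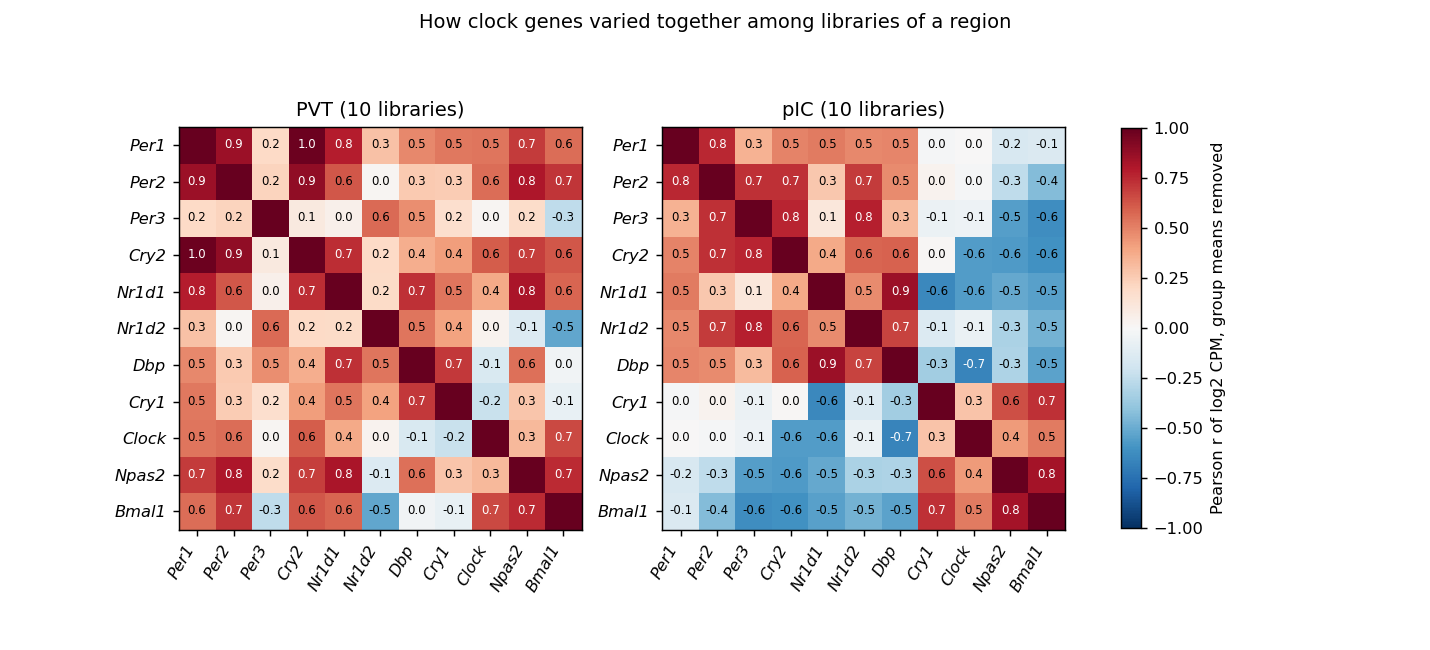
Pearson r between clock genes (Bmal1 added) over the 10 libraries of PVT, left, and of pIC, right, from log2 CPM with treatment means removed, red for positive and blue for negative. Per1, Per2 and Cry2 form a red block in PVT, and in pIC the rows of Cry1, Clock, Npas2 and Bmal1 are blue against Nr1d1, with r of -0.51 to -0.64.

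The libraries carry the same label in both regions, so the 6 STZ labels allowed a comparison of PVT and pIC libraries of 1 label, although a shared label is not stated to mean a shared mouse. For Per1, r between regions was 0.816 (p = 0.0403, exact permutation test, two-sided) and rho 0.657 (p = 0.175), with adjusted p = 0.273 and 0.793 over the 10 genes. For Nr1d1, r was 0.846 (p = 0.0569) and rho 0.6 (p = 0.242), and for Nr1d2 0.766 (p = 0.0819) and 0.83 (p = 0.0583) by the same exact permutation test. None of the 10 genes passed adjustment. Without the 2 labels farthest from the median PVT level, r was 0.854 for Per1, 0.105 for Nr1d1 and 0.599 for Nr1d2, so the Nr1d1 value rests on those libraries.

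Genes whose pattern was most like that of Per1, Dbp and Nr1d1 were ranked by Pearson r of log2 CPM with the 4 group means removed, over all 20 libraries and 13409 genes of at least 1 CPM. Nearest to Per1 were Mknk2 (r = 0.888), Khdc4 (0.885), Mcl1 (0.864) and Tet3 (0.856), and Per2 came 18th at 0.807. Nearest to Nr1d1 was Dbp at 0.793, before Havcr2 (0.774), Fcgr3 (0.767), Fam207a (0.761) and Lag3 (0.75). Nearest to Dbp were Tmem131l (0.821) and Dxo (0.819), then Nr1d1, Zpbp (0.791) and Cks1b (0.766). The link of Dbp and Nr1d1 was therefore the only one between clock genes that reached the first 5 places for these 3 genes.

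The exons of 3 clock genes overlap a gene on the opposite strand, by 295 bases for Cry2 (with D930015M05Rik), 263 of 3077 bases for Nr1d1 (with Thra) and 539 of 2993 bases for Dbp (with Sphk2). The libraries were stranded, but the strand setting of the counting is not given in the sources used here, so reads of these stretches may belong to either gene. Thra, the thyroid hormone receptor gene, averaged 575 ± 40.6 CPM in PVT STZ, 543 ± 24.0 in PVT control, 625 ± 30.0 in pIC STZ and 620 ± 19.8 in pIC control libraries. Its log2 fold change between PVT and pIC was -0.11 in STZ mice (adjusted p = 0.0874) and -0.19 in control mice (0.0395, and up to 0.168 over the alternatives), beside -0.42 and -0.54 for Nr1d1.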

How the data were processed

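Poly(A)-selected, stranded libraries of PVT and pIC punches were read as 1 deposited table of raw counts per gene, made by the authors, with 20 library columns and 0 unused. The build is GRCm39 (mm39), per the submitters' processing notes. How reads were aligned and counted, with which annotation and strand option, is not given in the sources used here. Symbols were matched to 51884 of the 57180 identifiers, and 32254 had a count in any library. Groups came from the labels.

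Each comparison was fitted on its own groups with the robust quasi-likelihood test of edgeR 4.0.16 in R 4.3.3. Scaling was TMM, and filterByExpr kept genes by a count of at least 10 and a total of at least 15. P-values were Benjamini-Hochberg adjusted over all genes tested, and genes under 0.05 were called. The contrast of STZ effects between regions used all 20 libraries. Log2 CPM for correlations used a prior count of 2. Standard errors (SE) and 95% intervals belong to log2 fold changes. The method was tested on simulated counts. No 2 libraries of a group were duplicates (lowest chi-square per degree of freedom 3.79).

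The members and gene lists were chosen with earlier results of these data known. All 10 clock genes are named. Of the 21 other clock genes, Bmal1 and those among the 3 of smallest p are named, since none passed, except a gene that is not reported here, and of the glucocorticoid and immediate early lists the 2 of smallest p in each STZ comparison. The 4 genes most like Per1, Dbp and Nr1d1 were named by r.

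Alternatives were DESeq2 1.42.0, voom with quality weights (limma 3.58.1), scaling by RLE or by the upper quartile, no filter, a replicate block, all libraries in 1 fit, thalamic, cortical and ependymal marker scores as covariates, a prior count of 0.5, and leaving out each library. The striatal score as a covariate was added after seeing the data. Every clock gene had at least 381 reads in each library. Counting error is not small beside the narrowest spreads, such as Clock in PVT STZ (1752 to 2054 reads, coefficient of variation 3.98%). Other such spreads were Per3 in PVT STZ (432 to 544 reads, 6.72%) and pIC STZ (474 to 700 reads, 7.51%) and Npas2 in pIC control (879 to 952 reads, 4.85%).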

Additional observations from a re-analysis of the deposited data

Results flagged for a closer look

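In 3 of the 40 combinations of 10 clock genes and 4 groups, 1 library stood apart from the others of its group by Dixon's test, and chance flags about 1 in 20 groups. Dbp was 60.33 CPM in PVT STZ replicate 1, where the next library had 38.07 CPM, a gap of 0.769 of the group's range. Nr1d1 was 103 CPM in pIC STZ replicate 1, where the next library had 79.78 CPM, a gap of 0.638. Cry2 was 181.9 CPM in pIC STZ replicate 5, where the next library had 150.8 CPM, a gap of 0.701. Replicate 1 of PVT STZ also had the highest striatal sum of its group, 3440 CPM, and replicate 1 of pIC STZ the lowest of its group, 396 CPM. The part of punch content in these values was not tested.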

How the results depend on the processing

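No clock gene passed for STZ against control in either region or for the difference between regions under any alternative but 3. With the thalamic score as a covariate 1 gene passed in PVT (Npas2), with DESeq2 1 passed in pIC (Per1), and with the striatal score as a covariate 1 passed in pIC (Npas2). Of all genes, 1066 passed in PVT with the thalamic score, against 353 without it. The share of all genes that passed in pIC with DESeq2 or with the striatal score is not given here. Leaving out each library gave 0 to 0 genes in these 3 comparisons, and 5 to 6 for PVT against pIC in each treatment. Over expressed genes, with group means removed, same-numbered STZ and control libraries had r between -0.261 and 0.44. Libraries of 1 label in both regions had r between -0.087 and 0.211. Such r cannot show whether a number or label marks a shared mouse or batch. Gh was highest in control replicate 4 in both regions, at 11800 CPM in PVT and 35.7 CPM in pIC, and the reason was not tested. With a replicate block 0 clock genes passed in PVT, 0 in pIC, 0 for the difference between regions, 7 for PVT against pIC in STZ mice (Per1 and Nr1d2 added, adjusted p = 0.00287 and 0.0365) and 5 in control mice. The share of all genes that passed for PVT against pIC with the block is not given here.

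Of all genes, 353 passed in PVT, against 904 with DESeq2, 72 with the block, 679 with all libraries in 1 fit, 5 with the ependymal, 1066 with the thalamic and 630 with the striatal score as a covariate. Upper quartile scaling moved the median of all genes for PVT against pIC in control mice to 0.101, where it was 0.025, and put Cry1 at 0.051 and Dbp at 0.026.

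The summed ependymal level did not overlap between STZ and control libraries in PVT, so fits with that score could hardly separate it from treatment. Some estimates changed sign, none of them called, and the cause was not tested. In PVT these were Per3 with voom (0), Egr1 (0.047) and Egr4 (0.14) with the block, and Per1 (-0.397), Per2 (-0.343), Per3 (0.12), Cry2 (-0.153) and Clock (-0.089) with the ependymal score. In pIC these were Cry2 (-0.01) and Thra (-0.011) with upper quartile scaling, Cry1 (-0.015) and Cry2 (-0.031) with voom, and Per2 (0) without the filter. With the block they were Per2 (0.018), Cry1 (-0.028) and Cry2 (-0.038), and with the cortical score Per2 (0.024) and Lonrf3 (-0.003), and with the striatal score Per2 (0.023). For the difference between regions they were Nr1d2 with upper quartile scaling (-0.015) and the block (-0.006) and Dbp with voom (0.126). Leaving out each library gave Per3 in PVT -0.139 to 0.01, and in pIC Per2 -0.073 to 0.058, Cry1 -0.003 to 0.162, Cry2 -0.051 to 0.041, Dbp -0.271 to 0.038, Lonrf3 0 to 0.393 and Thra -0.019 to 0.021. For the difference between regions it gave Nr1d2 -0.05 to 0.105, Dbp -0.254 to 0.087 and Clock -0.076 to 0.117, and for PVT against pIC in control mice Cry1 -0.083 to 0.052 and Dbp -0.229 to 0.085.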
